A study of Mus musculus with 6 samples.

Results

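Genes of glycolysis and of the cellular response to low oxygen were followed in bone-forming cultures with and without functional Fas ligand. The set holds 33 mouse gene symbols, listed by name, with no measured value in the rule: glycolytic enzymes, enzymes that steer pyruvate, hypoxia-inducible factors (HIFs) with the prolyl hydroxylases that control them, and known HIF target genes, with transporters left out. They occupy 34 of the 57180 rows of the deposited count table, because Aldoa is listed under 2 Ensembl identifiers. Of the 33 genes, 21 had enough reads to be tested, 5 had a few reads only, and 7 were listed at 0 in every library. Among the 21 tested genes, Pdk4 and Ndrg1 rose in FasL KO cultures, Pkm, Egln3 and Adm fell, and 16 did not pass the test.

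All libraries came from mouse calvaria-derived cells, taken from the skull vault as a source of bone-forming cells and differentiated in a mineralizing medium (ascorbate, 4 mM β-glycerophosphate). The protocol that all samples share names day 14 of differentiation and a further 72 h of culture, with wt and gld cells grown side by side. The 3 wt libraries came from C57BL/6 mice. The 3 FasL KO libraries came from mice homozygous for gld (strain B6Smn.C3-Faslgld/J), a point mutation that leaves the Fas ligand protein unable to signal, so the allele is not a deletion of the gene although the labels call it a knockout. The protocol also describes gld cells given recombinant Fas ligand, and no library used here carries that label. The sources used here give neither the age and sex of the mice nor the oxygen level. The labels do not say whether the 3 libraries of a group are separate animals or cultures, so every p-value below measures only the spread between these libraries.

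In glycolysis a chain of cytoplasmic enzymes splits glucose into pyruvate, which is then either reduced to lactate or passed into mitochondria through pyruvate dehydrogenase. When oxygen is plentiful, prolyl hydroxylases mark HIF-α proteins for destruction. When it is scarce, HIF-α accumulates, pairs with ARNT and switches on most glycolytic enzymes together with genes such as Adm, Ndrg1, Bnip3 and the prolyl hydroxylase gene Egln3 itself. Osteoblasts draw much of their energy from glycolysis, and HIF signalling in the osteoblast lineage is known to couple bone formation to blood vessel growth. HIF activity is set mainly by protein stability, which RNA counts do not measure.

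HIF binds DNA at a short core, ACGTG or GCGTG, and both were searched on both strands (their reverse complements are CACGT and CACGC) in the RefSeq promoter windows of GRCm38.p6, which run from 250 bases before to 50 bases after a gene's start. The letters CACGTG hold ACGTG on both strands, and a window counts once however many matches it has. A window was in the table for 30 of the 33 genes, Ero1l being matched under its newer symbol Ero1a and Epas1, Ndrg1 and Bnip3l having none. Of the 30 windows, 17 held ACGTG, 20 held GCGTG and 26 (86.7%) held either, against 19.6%, 32.4% and 43.8% of all 32851 windows in the table. Of the 15 windows of tested genes that did not pass the test, 12 held a core. Of the 4 windows of genes that passed it, 3 held one. Where the table has several windows for a gene, as for 9 of the 30, the one nearest the start of its principal GENCODE transcript was taken. The Pkm window taken held neither core and the other Pkm window held ACGTG, and with any window counted 28 of the 30 genes held a core. The 3 are printed here because their genes changed in opposite directions, Adm and Egln3 down and Pdk4 up. The capitals mark the cores.
Adm (chr7:110627407-110627706, plus strand): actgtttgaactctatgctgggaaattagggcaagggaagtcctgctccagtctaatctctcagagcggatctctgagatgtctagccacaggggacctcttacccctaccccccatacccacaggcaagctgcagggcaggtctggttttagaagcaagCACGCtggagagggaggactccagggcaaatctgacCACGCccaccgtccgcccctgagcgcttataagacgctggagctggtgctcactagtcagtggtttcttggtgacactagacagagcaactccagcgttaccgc
Egln3 (chr12:54203825-54204124, minus strand): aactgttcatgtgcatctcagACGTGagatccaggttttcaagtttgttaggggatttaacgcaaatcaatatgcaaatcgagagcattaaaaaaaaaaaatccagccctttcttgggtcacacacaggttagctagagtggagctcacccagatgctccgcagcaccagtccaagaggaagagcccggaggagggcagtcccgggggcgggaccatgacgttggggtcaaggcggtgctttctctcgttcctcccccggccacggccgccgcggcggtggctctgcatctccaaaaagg
Pdk4 (chr6:5496229-5496528, minus strand): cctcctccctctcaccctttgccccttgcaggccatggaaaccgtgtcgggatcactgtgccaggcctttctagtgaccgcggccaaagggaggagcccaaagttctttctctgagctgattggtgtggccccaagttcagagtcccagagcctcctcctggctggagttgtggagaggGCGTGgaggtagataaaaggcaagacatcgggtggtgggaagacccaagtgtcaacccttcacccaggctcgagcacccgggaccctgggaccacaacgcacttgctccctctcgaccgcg
The Adm window carries GCGTG at 2 places, both on the opposite strand, where they read CACGC. The Egln3 window has a single ACGTG near its far end and the Pdk4 window a single GCGTG. A match of 5 letters is a description of the sequence, not a bound site.

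Library totals ranged from 2011173 to 3105322 counts in the wt libraries and from 4048258 to 5245546 in FasL KO. Levels are given as CPM, the count relative to library size after scaling by TMM, a normalization that assumes most genes do not change, and fold changes are log2, FasL KO minus wt. In the comparison of FasL KO with wt, edgeR's quasi-likelihood test passed 1515 of 8692 genes (17.4%) at an adjusted p of 0.05, 847 higher (9.74%) and 668 lower (7.69%). With libraries scaled by their totals alone, 720 were higher and 975 lower, and the median fold change over all genes moved from 0.02 to -0.14 (log2). Fasl itself had 0 counts in all 6 libraries, which allows up to 0.367 CPM in the wt libraries and 0.222 CPM in FasL KO over a group (counting error only), so it checks no label. The mutated ligand's receptor Fas had 30.9 ± 8.69 CPM in the wt libraries and 30.2 ± 3.57 in FasL KO (SD, n = 3 each), a difference of -0.03 ± 0.31 (SE, edgeR adjusted p = 0.973).

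The cultures differed in cell type markers, which separate the same groups as every result below. Summed osteoblast lineage markers were at 16310 to 23990 CPM in the wt libraries and at 61410 to 67650 CPM in FasL KO, a sum made almost wholly of the collagen genes Col1a1 (7621 and 27144 CPM on average) and Col1a2 (11321 and 36358 CPM). Of 7 tested markers 5 were higher, while the phosphatase gene Alpl, needed for mineral to form, was lower, at 222 ± 40.5 against 48.2 ± 5.53 CPM (SD, n = 3 each, edgeR adjusted p = 7.97e-07). Of the genes tied to osteocytes, Dmp1 and Phex were among those higher, at 0.313 against 5.66 CPM and 0 against 7.25 CPM, and Mepe and Sost were at 0. Of the 16 macrophage and osteoclast markers all 7 that were tested rose, the sum over the list being 3.29 to 124.9 CPM in the wt libraries and 2167 to 6154 CPM in FasL KO, while Csf1r, Adgre1, Tyrobp, Fcer1g, Ctss, Acp5 and Dcstamp were listed at 0. Summed chondrocyte markers were at 206.8 to 220 CPM in the wt libraries and 784.5 to 834 CPM in FasL KO. That sum was made almost wholly of Sox9 (215 and 788 CPM on average). Acan, the other chondrocyte marker tested, rose from 0 to 22.9 CPM, Col9a1 was at 0, and Col2a1, Matn1 and Comp had 9, 24 and 2 counts in all. Of 5 adipocyte markers Lpl, a lipase that other cells also make, was the only one with enough reads to test and fell from 574 ± 102 to 115 ± 20.6 CPM (edgeR adjusted p = 2.13e-07), while Plin1 and Pparg were at 0, Adipoq had 1 count and Fabp4 had 1 count over the wt libraries and 6, 8 and 0 in FasL KO. Skeletal muscle markers summed to 1.581 to 7.049 CPM in wt and 18.68 to 27.69 CPM in FasL KO. Acta1, the only muscle marker tested, rose from 3.22 to 19.2 CPM on average. Ckm was at 0, Myod1 was at 1.40 and 1.08 CPM, and Des and Myog had 8 and 27 counts in all. Endothelial markers summed to 0.9399 to 5.22 and 4.483 to 15.72 CPM. Among them Pecam1, Cdh5 and Tie1 were at 0, and neither Kdr nor Plvap passed the test. The part of these cells in the differences described here was not tested. In bulk RNA, fewer cells of a type and less RNA per cell cannot be told apart.

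Of the 21 tested genes of the set, 5 passed the test, 2 higher and 3 lower (23.8% of the tested genes, against 17.4% of all genes tested). The median log2 fold change of the 21 was -0.13, against 0.02 for all genes tested. In 9 of the 21 genes the wt and FasL KO libraries did not overlap, 4 of them higher in FasL KO, while this held for 33.3% of all genes tested. Counts over tested genes leave out the 12 that had too few reads, which are accounted for further on.

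**Figure D1:**
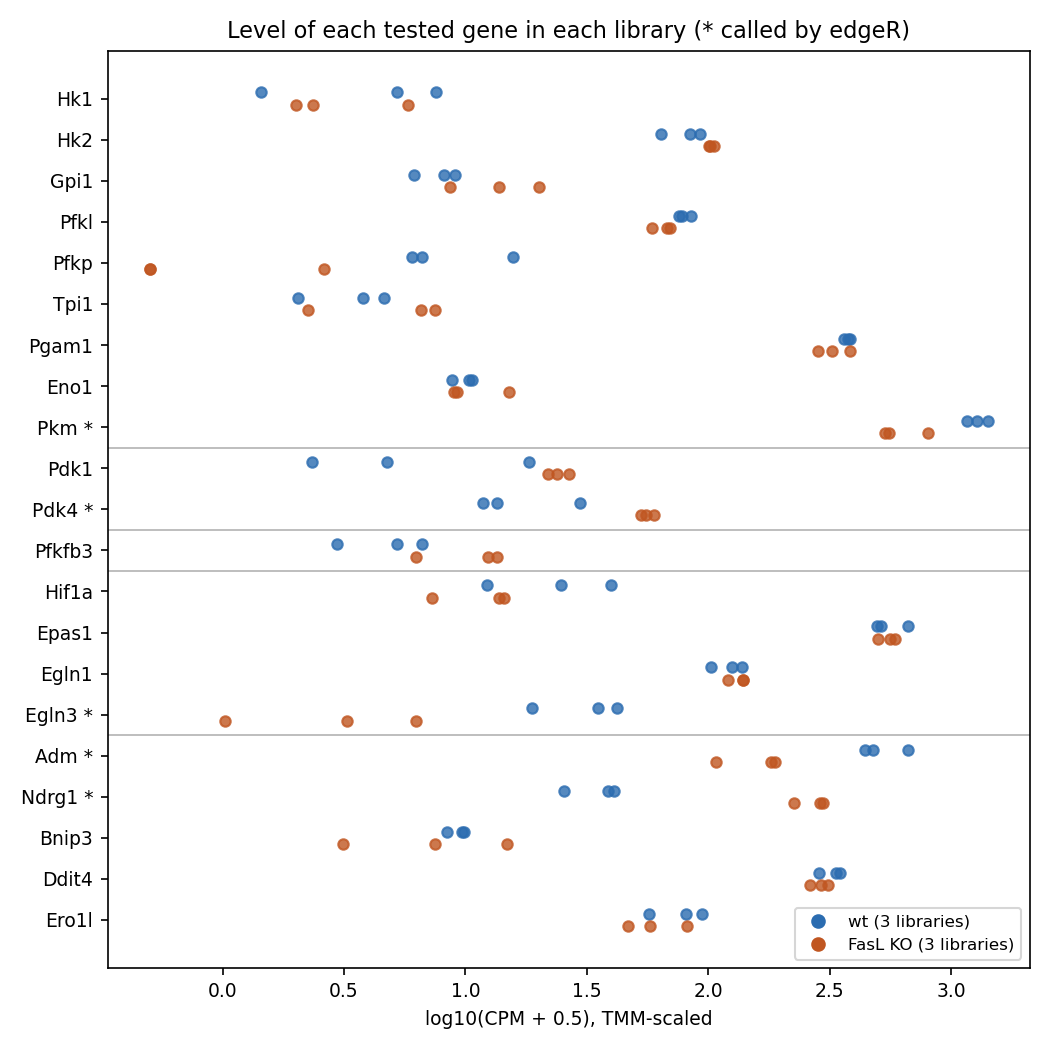
Level of each of the 21 tested genes in each library, as log10(CPM + 0.5), with wt in blue and FasL KO in orange and lines between functional groups; the asterisks mark genes that passed edgeR's test. The colours separate in 9 genes, among them Ndrg1, Egln3 and Adm, and mix in the other 12, such as Epas1 and Egln1.

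Pkm was the only glycolytic enzyme to pass the test, and it fell 2.04-fold in mean CPM. Pkm encodes pyruvate kinase M (ENSMUSG00000032294, GRCm38 chromosome 9, 59656368 to 59679375, plus strand), which catalyses the last step of glycolysis. Its level was 1160, 1274 and 1414.5 CPM in the wt libraries and 553, 531 and 799 CPM in the FasL KO libraries. Every FasL KO library lay below every wt library. The means were 1283 ± 127 and 628 ± 149 CPM (SD, n = 3 each), a log2 fold change of -1.03 ± 0.15 (SE, 95% interval -1.35 to -0.71, edgeR adjusted p = 0.000159). Its muscle-type and embryonic-type splice forms share their 3′ end, so these counts cannot separate them.

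The enzymes above pyruvate kinase did not pass the test. Of the 14 glycolytic enzyme genes 9 were tested, and edgeR called 0 higher and 1 lower (11.1%, against 17.4% of all genes tested), so these counts do not set the enzymes apart. At an unadjusted p of 0.05, 0 were higher by edgeR, 0 by DESeq2 and 1 by limma-voom, and at the adjusted threshold DESeq2 and limma-voom also called 0 higher. The median log2 fold change of the 9 was -0.17. Pgam1, the phosphoglycerate mutase of most tissues, had 372 ± 11.0 CPM in the wt libraries and 330 ± 51.4 in FasL KO (log2 fold change -0.17 ± 0.13, 95% interval -0.46 to 0.11, edgeR adjusted p = 0.469). Hk2, the inducible hexokinase that traps glucose in the cell and a textbook HIF target, was at 79.6 ± 14.7 and 102 ± 2.66 CPM. Its log2 fold change was 0.37 ± 0.19 (95% interval -0.04 to 0.77, edgeR adjusted p = 0.237), although all 3 FasL KO libraries lay above all 3 wt libraries. Pfkl, the liver-type subunit of phosphofructokinase, which commits sugar to glycolysis, was at 78.8 ± 4.98 and 64.8 ± 5.69 CPM, again without overlap (-0.28 ± 0.19, interval -0.69 to 0.13, edgeR adjusted p = 0.395). For these 3 genes the whole 95% interval lay within 1 log2 unit of 0.

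The other tested enzymes were counted too thinly for a narrow interval. Pfkp, the platelet-type phosphofructokinase subunit, had 13, 48 and 18 counts in the wt libraries and 0, 8 and 0 in FasL KO, and its log2 fold change of -3.66 ± 1.27 had an edgeR adjusted p of 0.0648. It passed the test under 5 of the other settings tried, among them without FasL KO replicate 2 (-7.97, edgeR adjusted p = 0.00544), the only FasL KO library with a read. Over all settings its adjusted p ran from 0.00544 to 0.314. Its 3′ end overlaps Pitrm1 on the opposite strand, which had 123 counts in all. Hk1, Gpi1, Tpi1 and Eno1, which carry out a hexokinase, an isomerase, a triose isomerase and an enolase step, had between 75 and 243 counts over the 6 libraries and log2 fold changes of -0.59 ± 0.99, 0.90 ± 0.52, 0.73 ± 0.91 and 0.17 ± 0.51. The wt and FasL KO libraries overlapped in each of these 4 genes, and their edgeR adjusted p ran from 0.305 for Gpi1 to 0.892 for Eno1.

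Most of the reads counted for the glycolytic enzyme genes were those of Pkm. Summed over the 14 enzyme genes, the level was 1737, 1862 and 1943 CPM in the wt libraries and 1076, 1003 and 1397 CPM in FasL KO, with no overlap. With Pkm left out, the sums were 576.6, 588.3 and 528.7 CPM in the wt libraries and 523.4, 472 and 598 CPM in FasL KO, and the groups overlapped. These sums leave out reads of the enzymes listed at 0 and the 16112 reads of the Gapdh copies described below. They also hold few reads of other enzymes, such as Aldoa (1 count) and Pgk1 (19 counts). The share of Pkm in all glycolytic RNA thus cannot be read from them.

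**Figure D2:**
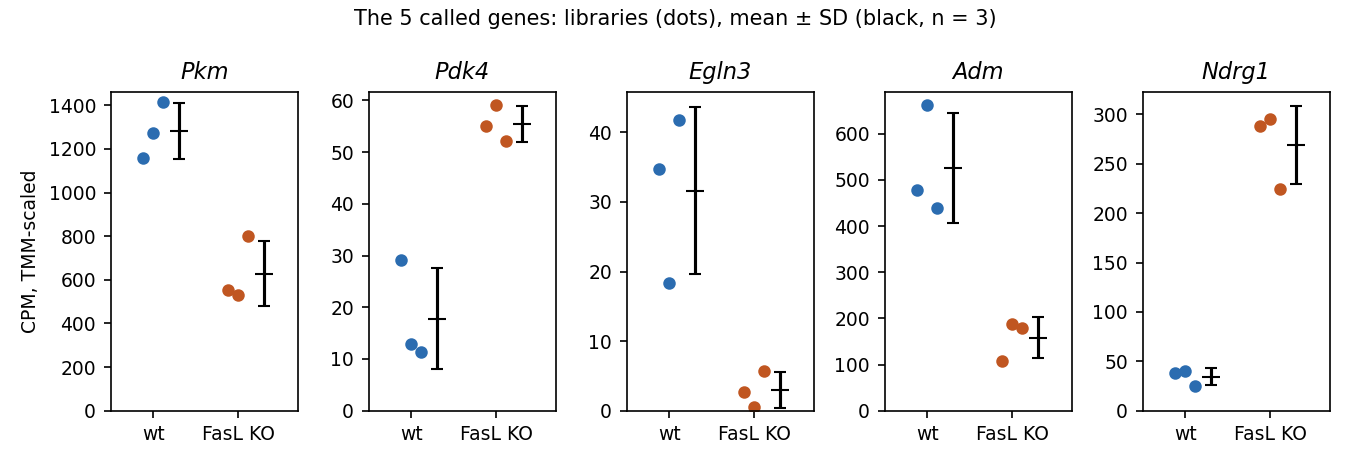
CPM of the 5 genes that passed edgeR's test, 1 panel a gene with its own axis from 0; dots are libraries and the black bars the mean ± SD of 3. Pkm, Egln3 and Adm are lower and Pdk4 and Ndrg1 higher in every FasL KO library than in any wt library.

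At the pyruvate branch point Pdk4 rose 3.11-fold. Pdk4 encodes a kinase that phosphorylates and shuts off pyruvate dehydrogenase and so spares pyruvate from oxidation (ENSMUSG00000019577, chromosome 6, 5483351 to 5496309, minus strand; its promoter window is printed above). It was at 29.1, 13.0 and 11.4 CPM in the wt libraries and at 55.1, 59.1 and 52.1 CPM in FasL KO. The groups did not overlap, and wt replicate 1 stood above the other wt libraries. The means were 17.8 ± 9.83 and 55.4 ± 3.47 CPM, and the log2 fold change was 1.67 ± 0.34 (95% interval 0.93 to 2.41, edgeR adjusted p = 0.00307).

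Pdk1, the kinase of the same family best known as a HIF-1 target, had 9, 56 and 6 counts in the wt libraries and 105, 88 and 104 in FasL KO. No wt library reached the FasL KO libraries, at 4.23, 17.7 and 1.84 CPM against 26.2, 23.2 and 21.3 CPM, and wt replicate 2 was far above the other wt libraries. Its log2 fold change of 1.55 ± 0.62 (95% interval 0.22 to 2.88) missed the threshold with an edgeR adjusted p of 0.113. Without wt replicate 2 it was 3.00 with an edgeR adjusted p of 0.00254, and the adjusted p ran up to 0.281 over the settings tried. Ldha, the lactate dehydrogenase subunit induced by HIF, had 0, 16 and 0 counts in the wt libraries and 24, 4 and 11 in FasL KO and was not tested, and Ldhb was listed at 0.

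Pfkfb3, which makes the phosphofructokinase activator fructose 2,6-bisphosphate, was at 6.11, 4.74 and 2.46 CPM in the wt libraries and at 5.74, 12.9 and 11.9 CPM in FasL KO. The groups overlapped, and the log2 fold change was 1.21 ± 0.66 (95% interval -0.20 to 2.62, edgeR adjusted p = 0.263). Pfkfb4, an enzyme of the same family, was listed at 0.

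Of the oxygen-sensing genes all 4 were tested and Egln3 alone passed, falling in FasL KO (25%, against 17.4% of all genes tested). Egln3 encodes a prolyl hydroxylase that HIF itself induces (ENSMUSG00000035105, chromosome 12, 54178981 to 54203860, minus strand). It had 74, 58 and 136 counts in the wt libraries and 11, 2 and 28 in FasL KO, or 34.8, 18.3 and 41.8 CPM against 2.74, 0.527 and 5.75 CPM. The lowest wt library was above the highest FasL KO library. The log2 fold change was -3.34 ± 0.62 (95% interval -4.68 to -2.01, edgeR adjusted p = 0.00135). Its size moved most without FasL KO replicate 3, to -4.25, and with each library left out in turn it ran from -4.25 to -2.90 and passed each time.

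The genes for the HIF-α subunits and the main prolyl hydroxylase did not pass. Epas1, which encodes HIF-2α, was at 513, 665 and 492 CPM in the wt libraries and at 587, 558 and 497 CPM in FasL KO, with overlapping groups and a log2 fold change of -0.02 ± 0.13 (95% interval -0.31 to 0.26, edgeR adjusted p = 0.946). Egln1, which encodes the hydroxylase that sets HIF-α levels at normal oxygen, was at 121 ± 17.4 and 132 ± 10.8 CPM (0.12 ± 0.17, interval -0.24 to 0.48, edgeR adjusted p = 0.724). Hif1a, which encodes HIF-1α, had 25, 124 and 79 counts in the wt libraries and 53, 53 and 33 in FasL KO. Those counts gave a log2 fold change of -1.16 ± 0.48 (interval -2.18 to -0.14, edgeR adjusted p = 0.124), and without wt replicate 1 it was -1.49 with an edgeR adjusted p of 0.043, the lowest of a range up to 0.484 over the settings tried. The Hif1a groups overlapped, wt replicate 1 at 11.7 CPM lying below 2 of the FasL KO libraries.

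**Figure D3:**
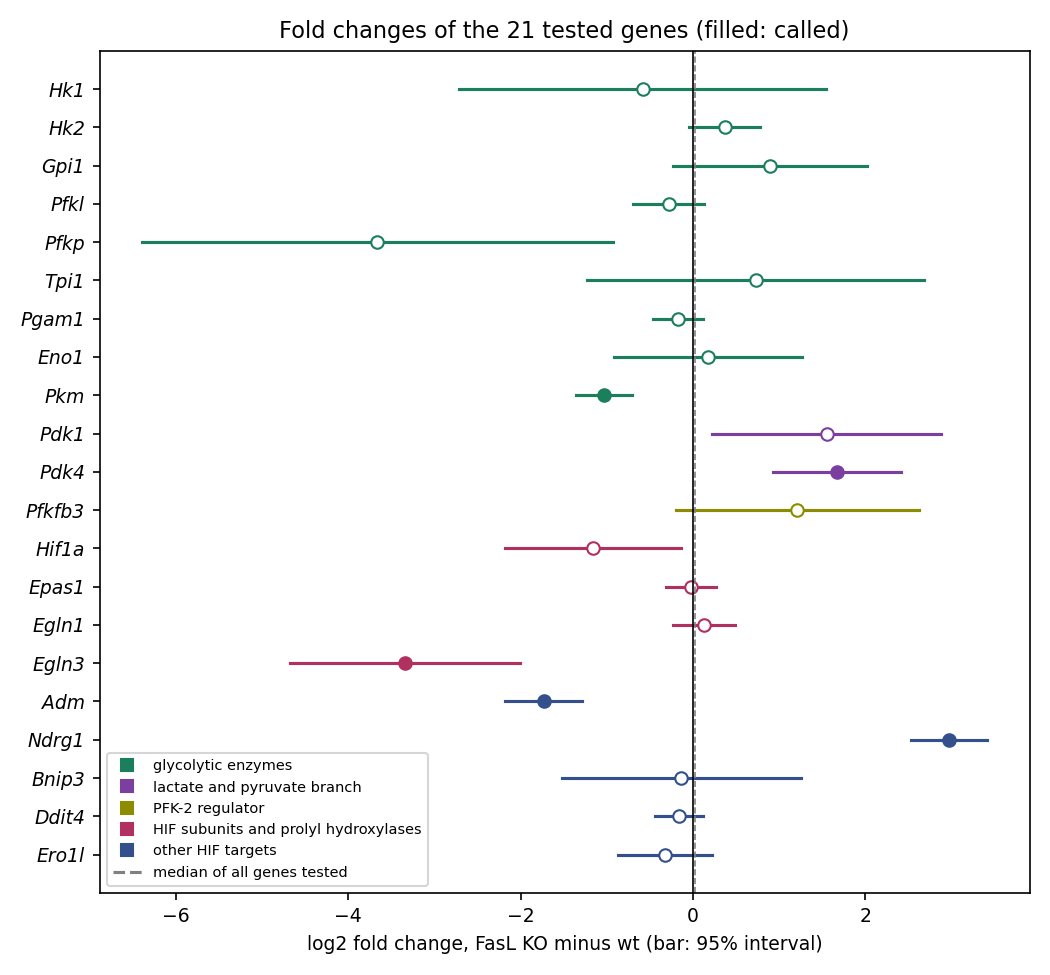
Log2 fold change (FasL KO minus wt) of the 21 tested genes with its 95% interval, coloured by functional group; filled points passed edgeR's test, and the dashed line is the median of all genes tested, 0.02. Filled points lie on both sides of 0, from -3.34 for Egln3 to 2.97 for Ndrg1, and the intervals are widest for thinly counted genes such as Pfkp and Hk1.

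Other HIF targets moved in opposite directions. Of these 9 genes 5 were tested, and Ndrg1 rose while Adm fell. That is 40% of the tested genes, against 17.4% of all genes tested, a share that rests on few genes. Ndrg1 encodes a cytoplasmic protein induced by low oxygen and other stresses (ENSMUSG00000005125, chromosome 15, 66929318 to 66969640, minus strand). It had 81, 128 and 81 counts in the wt libraries and 1154, 1122 and 1092 in FasL KO, or 38.1, 40.5 and 24.9 CPM against 288, 296 and 224 CPM. The groups were far apart, with means of 34.5 ± 8.40 and 269 ± 39.3 CPM, a 7.81-fold difference. Its log2 fold change of 2.97 ± 0.21 (95% interval 2.53 to 3.41) had an edgeR adjusted p of 1.30e-07. The antisense gene Gm17035 overlaps the end of Ndrg1 and had 0 counts in every library.

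Adm encodes the precursor of adrenomedullin, a secreted peptide that widens blood vessels and acts on bone cells (ENSMUSG00000030790, chromosome 7, 110627661 to 110629820, plus strand). It was at 477, 663 and 439 CPM in the wt libraries and at 107, 188 and 180 CPM in FasL KO. Each wt library was above each FasL KO library. The means were 526 ± 120 and 158 ± 44.4 CPM, and the log2 fold change was -1.73 ± 0.21 (95% interval -2.18 to -1.29, edgeR adjusted p = 2.74e-05). Macrophage marker sums in FasL KO replicates 1, 2 and 3 were 2167, 3547 and 6154 CPM, highest in replicate 3. Of the 5 genes that passed, Pkm and Egln3 were also highest in FasL KO replicate 3, and Pdk4, Ndrg1 and Adm in replicate 2. Adm was close in replicates 2 and 3, at 188 and 180 CPM. A link between macrophage content and these levels was not tested.

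Ddit4, an inhibitor of mTOR signalling that rises with low oxygen and other stresses, was at 322 ± 32.4 CPM in the wt libraries and 288 ± 24.9 in FasL KO, with overlapping groups (log2 fold change -0.16 ± 0.13, 95% interval -0.44 to 0.12, edgeR adjusted p = 0.490). Ero1l, an oxidase that helps form disulfide bonds in secreted proteins, also overlapped between groups (-0.32 ± 0.25, interval -0.87 to 0.22, edgeR adjusted p = 0.478). Bnip3, which directs damaged mitochondria to autophagy, had 20, 25 and 30 counts in the wt libraries and 28, 10 and 70 in FasL KO. Its interval of -1.52 to 1.25 around -0.13 was wide (edgeR adjusted p = 0.940). AC160336.1, a gene whose sequence nearly matches the end of Bnip3, had another 42 counts.

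Several genes of the set could not be judged from these counts. Listed at 0 in every library were Pfkm, Gapdh and Ldhb, which are glycolytic or lactate enzymes, Pfkfb4, and the HIF targets Ankrd37, Car9 and Higd1a. Among those with reads but too few to test, Aldoa had 1 count, Aldoc 8 (all in wt replicate 2), Pgk1 19, Ldha 55 and Bnip3l 13 (all in FasL KO replicate 2). Pgk1, which encodes phosphoglycerate kinase, had 0, 1 and 0 counts in the wt libraries and 7, 2 and 9 in FasL KO. Gapdh, at 0, and Aldoa, Pgk1 and Ldha, with few counts, encode enzymes that nearly every cell uses. A count of 0 or a few here thus says only what is listed, not that the gene was silent.

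Which genes had reads went with how their 3′ ends are annotated. The last 300 exonic bases of each gene were compared with its GENCODE M21 transcripts, and an end was called single where at least 99% of those bases lay in 1 transcript. Of the 14 genes with a single end, 13 were tested, 0 were at 0 and the median total was 1487 counts. Of the 19 with an end shared by several transcripts, 8 were tested, 7 were at 0 and the median total was 19 counts. Enough reads for a test were found for 43.8% of the 11207 coding genes with such a single end in the annotation, and for 14.5% of the 10585 with a shared one. Pkm has a shared end, with 62% of its last 300 bases in 1 of 11 annotated transcripts, and the other 4 genes that passed have single ends. The sources used here do not give how reads matching several transcripts were counted.

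**Figure D4:**
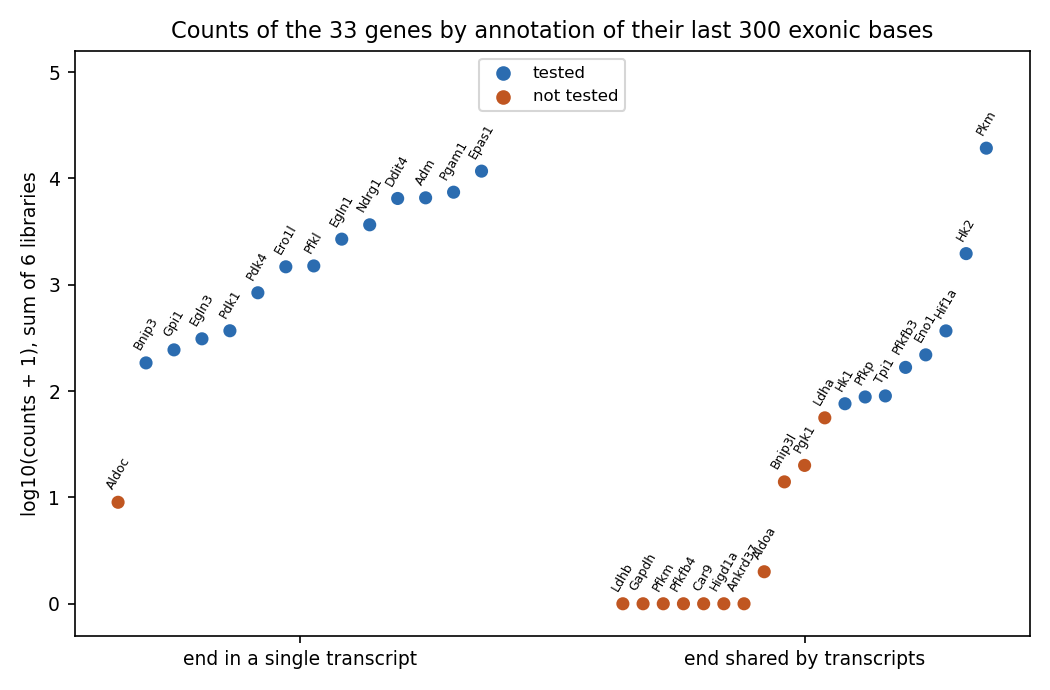
Summed counts of the 33 genes over the 6 libraries, as log10(counts + 1), with genes split by their last 300 exonic bases into those covered by a single transcript (left) and those shared by transcripts (right); blue genes were tested and orange ones were not. All 7 genes at 0 lie on the right, together with Pkm, which has the most counts of the set at 19227.

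Near-identical copies of 2 of the genes listed at 0 did carry reads. A sequence search found 124 other genes that match the end of Gapdh at 95% identity or more over at least 75 bases, 120 of them pseudogenes. Of the 124, 80 had reads, 16112 in all. Together these copies reached 1032, 924.1 and 1109 CPM in the wt libraries and 560.3, 555.1 and 622 CPM in FasL KO, without overlap. Of the 39 copies that were tested 0 rose and 5 fell by edgeR, while 9.74% of all genes tested were higher and 7.69% lower. At an unadjusted p of 0.05 edgeR had 0 and 14, and at the adjusted threshold DESeq2 called 0 and 6 and limma-voom 0 and 5. Log2 fold changes of the copies ran from -1.39 to -0.07. All of them match the end of the same gene, so a read may fit several, and the copies are not independent of each other. Gm5514, a pseudogene copy of Ldhb, had 10, 25 and 21 counts in the wt libraries and 108, 71 and 76 in FasL KO, a log2 fold change of 1.67 ± 0.46 (edgeR adjusted p = 0.0209). Whether any of these reads came from Gapdh or Ldhb transcripts was not tested.

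Genes around the set were read from 7 further lists of the same pathways, drawn up with earlier results of these data known. Of their 110 genes 36 were at 0 and 51 were tested, of which 5 rose and 12 fell (33.3% of the tested genes, against 17.4% of all), with a median log2 fold change of -0.08. Leaving out 1 library in turn gave 11 to 14 genes, with 11 both without wt replicate 3 and without FasL KO replicate 2.

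Around pyruvate dehydrogenase, the complex that Pdk4 inhibits, 11 of 13 genes were tested. Among these 1 rose and 3 fell (36.4% of the tested genes, against 17.4% of all genes tested). Pdp1, a phosphatase that switches the complex back on, had 7.07 ± 0.44 CPM in the wt libraries and 36.5 ± 9.82 in FasL KO (log2 fold change 2.36 ± 0.37, edgeR adjusted p = 0.000353). The other phosphatase gene, Pdp2, fell (-1.05 ± 0.24, edgeR adjusted p = 0.00677), as did Dlat, the core subunit of the complex (-0.90 ± 0.20, edgeR adjusted p = 0.0054). Genes for a kinase and a phosphatase that act on this complex in opposite ways thus both rose. Dld, the subunit that the complex shares with others, had a log2 fold change of -0.59 with an edgeR adjusted p of 0.0456, which rose above 0.05 whichever of the 6 libraries was left out (0.0543 to 0.23).

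The other metabolic lists held few tested genes, so the shares that passed rest on little. These were 25% of the tested other glycolysis genes, 12.5% for the tricarboxylic acid cycle and 33.3% for the pentose phosphate pathway, against 17.4% of all genes tested. Of 22 other glycolysis genes 15 were at 0 and 4 tested, and Bpgm, which diverts a glycolytic intermediate to 2,3-bisphosphoglycerate, fell from 81.3 ± 7.04 to 34.0 ± 2.74 CPM (-1.26 ± 0.21, edgeR adjusted p = 0.000602). Of 8 tested genes of the tricarboxylic acid cycle 1 fell, the succinate dehydrogenase subunit gene Sdhb (-0.58 ± 0.13, edgeR adjusted p = 0.00508). Of 3 tested genes of the pentose phosphate pathway 1 fell, G6pdx, which makes NADPH (-0.60 ± 0.20, edgeR adjusted p = 0.0498). The one transporter tested was Slc16a1, which moves lactate, and it fell (-0.58 ± 0.18, edgeR adjusted p = 0.0387). G6pdx missed the threshold in each of the 5 fits that left out a library other than wt replicate 1 (edgeR adjusted p = 0.0738 to 0.241). Slc16a1 missed it without each of the 3 wt replicates and without FasL KO replicate 2 (edgeR adjusted p = 0.0632 to 0.142).

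None of the 8 tested genes of 14 HIF pathway regulators passed edgeR's test, while 17.4% of all genes tested did. Ep300 was at -0.37 ± 0.22 and Crebbp at -0.08 ± 0.22 (coactivators, edgeR adjusted p = 0.318 and 0.882). At an unadjusted p of 0.05, 1 of the 8 was higher, and DESeq2 and limma-voom also called 0. Of 30 further HIF targets 16 were tested, 4 rose and 5 fell (56.2% of the tested genes, against 17.4% of all genes tested). This list too was drawn up with earlier results of these data known, so the share is a description only. Loxl2, a collagen cross-linking enzyme, fell from 465 ± 52.5 to 206 ± 16.5 CPM (-1.17 ± 0.13, edgeR adjusted p = 1.41e-05). Bhlhe40, a repressor of transcription, rose by 1.66 ± 0.20 (edgeR adjusted p = 2.73e-05). Ppp1r3c, which promotes glycogen storage, rose by 2.89 ± 0.48 (edgeR adjusted p = 0.000508), and by 3.92 without wt replicate 1. Like Ndrg1 and Adm, then, these targets lay on both sides of 0.

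**Figure D5:**
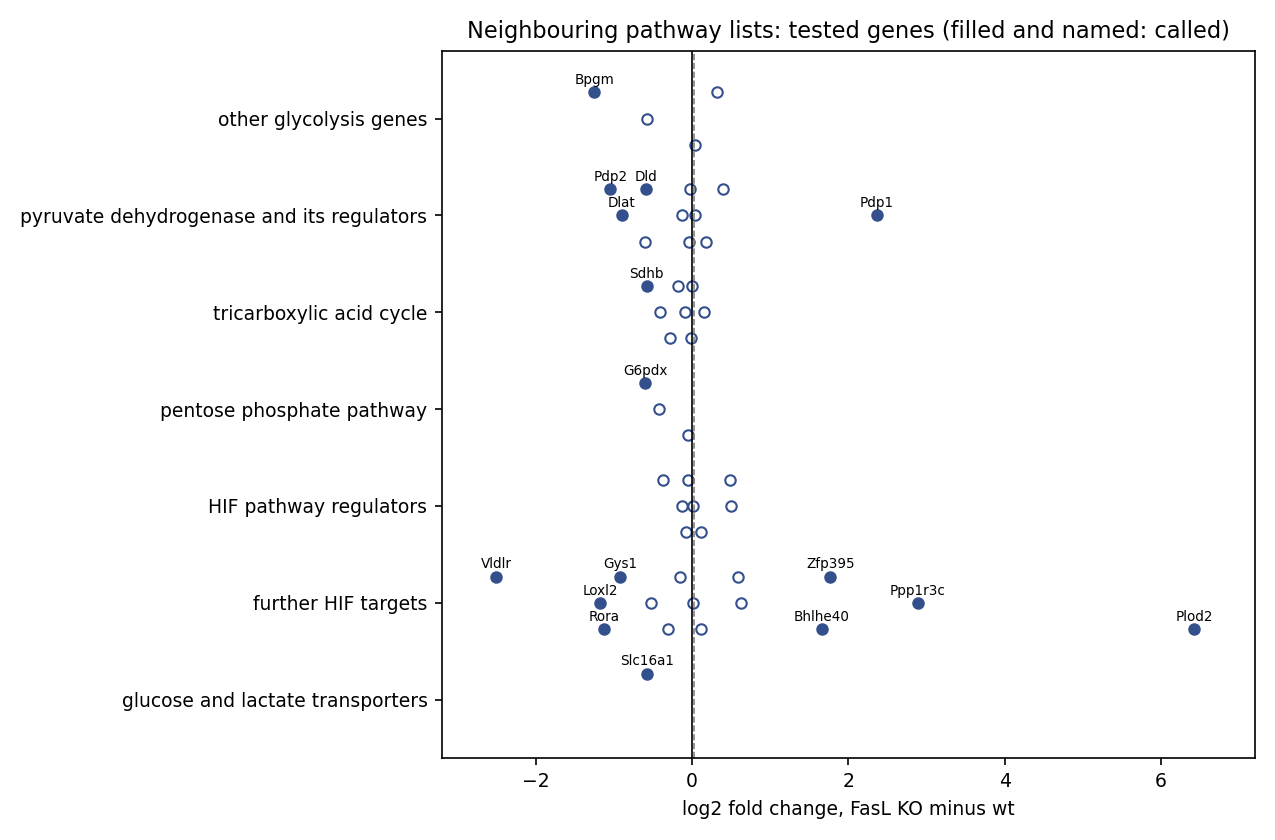
Log2 fold change (FasL KO minus wt) of tested genes of the 7 neighbouring lists, 1 point a gene, spread vertically within a list for legibility; filled and named points passed edgeR's test and the dashed line is the median of all genes tested. The further HIF targets spread to both sides, while the named points of the other lists lie below 0 except Pdp1. Plod2 had 1 count over the wt libraries, so its position depends on the prior count of the fit.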

How the data were processed

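The 6 libraries of the series were analysed, 3 from wt and 3 from FasL KO. Libraries were made from total RNA with the QuantSeq 3′ FWD kit, per the labels' protocols; their reads sit at transcript 3′ ends and so depend on how those ends are annotated. Single reads of 75 bases were trimmed with Cutadapt and aligned with STAR, per the labels. Among tools and builds, FastQC, Trim Galore, DESeq2 and mm10 appear in the submitters' processing notes. The sources used here do not name the counter, its strand setting or its annotation, so overlapping genes on opposite strands cannot be told apart. The authors deposited raw counts per Ensembl gene, used as deposited, and 1 row without an identifier was dropped.

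Positions and 3′ ends came from GENCODE M21 (GRCm38, the mm10 build). Symbols came from a gene name list, which named 51883 identifiers. Copies of 3′ ends were searched with blastn 2.17.0. Genes were kept by filterByExpr (minimum count 10, total 15), scaled by TMM and tested with edgeR 4.0.16 in R 4.3.3 (quasi-likelihood, no covariate, Benjamini-Hochberg over all genes tested, adjusted p 0.05). The procedure was tested on simulated data. SEs are the log2 fold change over the root of its F. DESeq2 1.42.0, limma 3.58.1 (voom) and other scalings, filters and left-out libraries were alternatives, and single-transcript ends alone were added after seeing the data. Libraries of a group differed by more than sampling noise (chi-square per degree of freedom 6.44 to 15). The numbers of the replicates gave no sign of pairing libraries, and the main fit used none.

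The rule for the set uses no measured value, but the set, the other lists and the tests were drawn up with earlier results of these data known. All genes of the set are named. In full are given those past the threshold and the tested gene of each role with the most counts. From each other list, up to 4 genes that passed are named by adjusted p, or 2 with most counts where none passed. A gene that this rule would name is not reported here or drawn, though the counts over lists hold it. Genes named as overlaps or copies, and Plod2, were picked after seeing values.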

Additional observations from a re-analysis of the deposited data

How the results depend on the processing

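Pkm, Pdk4, Egln3, Adm and Ndrg1 kept their direction and their call in every alternative that tested them; Pkm, with its shared end, drops out when only genes with single-transcript ends are fitted. Pfkp and Pdk1 lie near the threshold: Pfkp passed with libraries scaled by total alone (adjusted p = 0.0461), DESeq2 (0.00935), no low-count filter (0.0179) and the replicate block (0.0467), and Pdk1 passed with limma-voom (0.0368) and no filter (0.0223). Across alternatives 5 to 7 genes of the set passed, or 4 with single-transcript ends alone. The count over all genes ran from 1224 to 1424 with 1 library left out, and was 1695 with library size alone and 1688 with DESeq2.

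Genes that did not pass and whose sign turned with 1 library left out are given by their range over those fits: Eno1 (-0.152 to 0.2878), Epas1 (-0.1062 to 0.1254), Bnip3 (-0.8917 to 0.2537), Pdk3 (-0.2578 to 0.00389), Crebbp (-0.2019 to 0.09421) and Egln2 (-0.2946 to 0.03132). Egln1 was -0.0343 with library size alone. The cause was not tested. Genes called in the 7 neighbouring lists numbered 11 to 14 with 1 library left out, against 17.

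The replicate numbers gave no sign of pairing, which does not exclude it. Same-numbered libraries deviate with correlations of -0.0231, -0.015 and -0.0227, and differently numbered ones with -0.00518 to 0.0257. With the replicate number as a block, 1359 genes, 6 genes of the set and 13 of the neighbouring lists passed. Depth limits the thinly counted genes most, and genes with shared ends are judged on few reads or none.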

Other observations

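Receptor genes for adrenomedullin and the related peptide CGRP were looked up after Adm was seen to fall. Of them 3 were tested and 1 passed, in the opposite direction (33.3%, against 17.4% of all genes tested). Calcrl encodes the main chain that the receptors of both peptides share. It had 37, 32 and 34 counts in the wt libraries and 459, 342 and 432 in FasL KO. In CPM it was at 12.6 ± 4.11 and 97.8 ± 14.5 (SD, n = 3 each). Its log2 fold change was 2.98 ± 0.27 (edgeR adjusted p = 2.14e-06), with every FasL KO library above every wt library. Ramp1, whose protein pairs with that chain in the CGRP receptor, had a log2 fold change of -0.51 ± 0.45 (edgeR adjusted p = 0.542). Ramp2 and Ramp3, the partner genes for the adrenomedullin receptors, were listed at 0. The scavenging receptor gene Ackr3 stood at -0.25 ± 0.14 (edgeR adjusted p = 0.275). The other Ndrg genes, looked up after Ndrg1 was seen to rise, could not be compared with it, since Ndrg2 and Ndrg4 were listed at 0 and Ndrg3 had 19 counts.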
